A study of Mus musculus with 10 samples.

Results

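This account covers the 2 ATAC-seq libraries of wild-type mice, out of 10 libraries in the series, and the footprint of every one of the 879 transcription factor motifs in the deposited table. The members were chosen by genotype and assay, and no motif was left out. The cells were primary smooth muscle cells of the aortic media of male mice aged 8 weeks, expanded in culture and taken at a passage from 2 to 7, with 50000 cells in each ATAC library. The labels give these mice the genotype wild type and name no Cre driver for them. The labels used here do not state strain, tamoxifen or the passage of each library. The authors scored the 2 wild-type mice as 1 pool, so a motif has 1 score and no spread between mice, and no difference between motifs could be tested against replicate error. RNA of 3 wild-type mice was used as a second readout, and whether any of them also gave an ATAC library is not stated.

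ATAC-seq maps where the Tn5 transposase can insert into chromatin. A protein sitting on its site shields a few bases within an otherwise open stretch, and footprinting looks for that dip in insertions. A footprint score of this kind rises both with the insertions flanking a site and with the dip at its centre, so it reads openness and protection together. The motif names a DNA-binding preference rather than 1 protein, since factors of a family recognise almost the same letters. In smooth muscle, serum response factor (SRF) with its partner myocardin drives contractile genes, MEF2 factors take part in muscle gene programmes, and TEAD, AP-1, SMAD and KLF factors are known for their part in growth, matrix and phenotype changes.

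To show what the groups of motifs recognise, well known core letters of 13 groups are printed here from the highest to the lowest group by median footprint score. N stands for any base, and the capitals mark the letters searched. The cores are textbook letters chosen with the scores known; the matrices that the authors scanned were not used here.
NRF1: GCATGCG
EGR and WT1: GCGTGGG
NFY: CCAAT
KLF and SP: GGGCGG
E2F: GCGGGAA
ETS: CCGGAAG
CREB and ATF: TGACGT
AP-1: TGANTCA
TEAD: GGAATG
Forkhead: TGTTTAC
Family of GATA factors: AGATAA
POU homeobox: TGCAAAT
HOX and CDX homeobox: TAATTA

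The wild-type RNA libraries held smooth muscle transcripts and, at a higher summed level, endothelial transcripts. Whether the cultures behind the footprints had the same make-up is not known, since no link between the libraries is stated. All 8 smooth muscle markers reached 1 TPM (a transcript level corrected for gene length and scaled to the library), among them Acta2, smooth muscle actin, at 1249 ± 40.8 TPM (SD, n = 3), while Myh11, the myosin heavy chain of mature smooth muscle, stood at 43.9, 37.2 and 30.7 TPM. All 8 endothelial markers did so too, with a summed level of 4118 to 4620 TPM per library against 2292 to 2407 TPM for the smooth muscle list. The macrophage list summed to 328 to 478 TPM with 8 of 8 genes at 1 TPM, and the fibroblast list to 730 to 988 TPM with 5 of 8. Among the endothelial genes Emcn, an endothelial sialomucin, stood at 2148, 1825 and 2164 TPM, and Kdr, the receptor for VEGF, at 9.49, 7.84 and 9.55 TPM. Of the fibroblast list, Thy1, a surface protein found on several cell types, made up most of the sum at 698 ± 132 TPM (SD, n = 3), with the collagen gene Col1a1 at 124, 135 and 107 TPM, while Dpt, Lum and Scara5 were at or near 0. In a pool of cells a footprint held by few cells and a weak footprint held by all cannot be told apart, and the part of the endothelial markers in the footprints was not tested.

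Wild-type scores ran from 0.119 to 0.474 over the 879 motifs, with a median of 0.207 and quartiles of 0.176 and 0.250. The score has no unit, and here only its order and ratios within wild type were used. The motifs had 903 to 212951 sites each, with a median of 18672, and the authors called 2.33% to 43.0% of a motif's sites bound, with a median of 8.14%. The highest score was thus 3.98 times the lowest, while the bound share spanned 18.5 times. More than 30% of the sites were called bound for 25 motifs and under 4% for 82. Intervals on a bound share (95% Wilson) were 0.223 to 4.49 percentage points wide, cover the counting of sites only, and leave out the difference between mice, which the pooling hides.

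**Figure D1:**
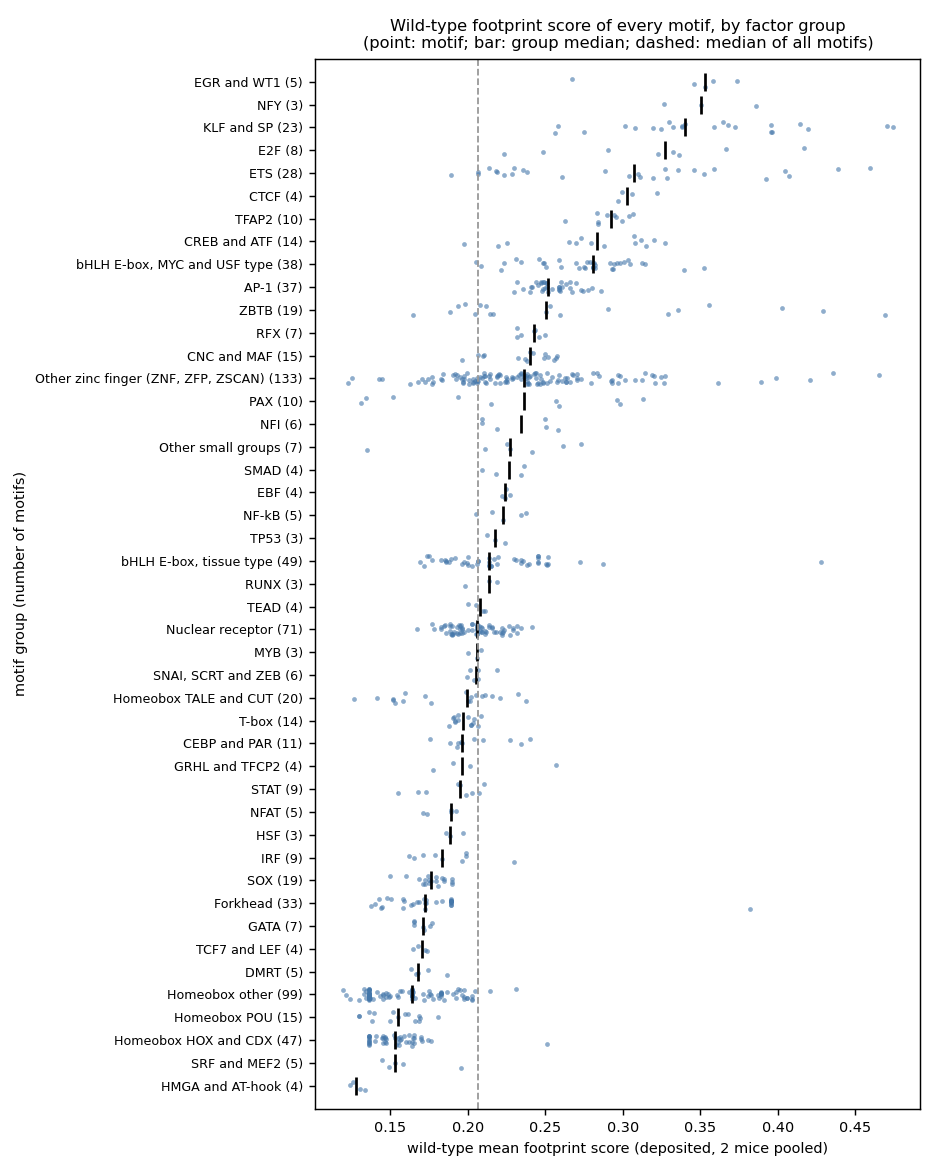
Wild-type mean footprint score (no unit) of each motif, in 45 groups of at least 3 motifs ordered by their median. Points are motifs, black bars are group medians and the dashed line is the median of all 879 motifs, 0.207. EGR, NFY and KLF and SP groups stand at the top and MEF2, AT-hook and most homeobox motifs at the bottom.

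The 10 highest motifs were led by Krüppel-like, ETS, ZBTB and NRF1 motifs, families whose sites are known to be rich in G and C. KLF15 (matrix MA1513.2) was first, with a score of 0.474 and 17002 of 39497 sites called bound, 43.0% (95% Wilson interval 42.6% to 43.5%). KLF15 and KLF7, which followed at 0.471 with 42.5%, are Krüppel-like zinc finger factors. ZBTB33, also known as Kaiso, which binds methylated CpG, had 0.469 on only 3330 sites, with 40.8% bound (39.2% to 42.5%). The zinc finger motif ZBED4 had 0.466 and 42.6%. The other members of the first 10 were ELK3 (0.460), Nrf1 (0.443), ETV5 (0.439), ZNF610 (0.436), ZBTB14 (0.429) and TCFL5 (0.428). ELK3 and ETV5 are ETS factors, and Nrf1 is nuclear respiratory factor, which controls genes of mitochondria. By bound share 9 of these 10 motifs were again among the first 10; HINFP, a regulator of histone genes, came in with 36.2%, and ETV5, with 36.2% as well, was of rank 11.

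The 10 lowest motifs were mostly of homeobox factors, a class in which many sites are known to be rich in A and T. Among them the pituitary homeobox factor Lhx3 had 0.121 with 2.51% of its sites bound, the zinc finger motif ZNF384 had 0.122 with 2.93%, and Hmga1, of an AT-hook protein, had 0.124 with 711 of 25596 sites bound, 2.78%. ZNF354A, Arid3b, ONECUT3, POU4F3 and Alx1 had 0.125 to 0.130. Here too 9 of 10 motifs were also among the 10 lowest by bound share, and POU4F1 took the remaining place with 2.88%. ZNF384 and ZNF354A had 36593 and 37002 sites, above the median of all motifs.

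Among the 50 highest motifs 15 were KLF or SP, 9 ETS, 6 in the mixed class of other zinc fingers, 5 ZBTB, 4 EGR, 3 E2F and 2 NFY. Of the 50 lowest, 40 were homeobox motifs and 4, all there are in that group, AT-hook or ARID motifs. Homeobox motifs made up 20.6% of the table and 61.4% of its 220 lowest motifs. Of the 181, 172 scored under the median of all motifs. The 50 lowest include 29 homeobox motifs with the same sites, bound sites and score, 0.136. Other homeobox motifs shared values as well, so these are counts of motifs and not of separate measurements.

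EGR and WT1 motifs formed the group with the highest median, 0.353 over 5 motifs, with a median bound share of 26.8%. EGR factors are zinc finger proteins induced early by serum and stress. The 4 EGR motifs lay close together, from 0.346 for EGR4 to 0.374 for EGR3, whereas Wt1, the Wilms tumour factor, lay lower, at 0.267, with 15.9% of 53264 sites bound. With each cluster of the deposited table counted once, the group fell to 0.311 and 21.6% bound. By score NFY (0.354) and KLF and SP (0.336) then stood ahead of it, and E2F (0.311, with 21.8% bound) was level with it. Its first place thus depends on how motifs are counted. Over summed sites its share was 23.2%, against 25.8% for KLF and SP.

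NFY, the trimer that binds the CCAAT box, had a median of 0.351 over its 3 motifs. NFYA had 0.386, NFYB 0.351 and NFYC 0.326. These 3 names are subunits of 1 complex, so the scatter among them is a scatter between matrices. The bound shares, 23.9%, 21.3% and 18.7%, were low for such scores: Foxn1, next to NFYA at 0.382, had 30.7%.

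KLF and SP motifs, which recognise GC boxes and CACCC boxes, had a median of 0.340 and a median bound share of 25.3%, and all 23 scored above the median of all motifs. KLF15 was the highest member and KLF9 the lowest, with 0.256 and 12.9%. SP2 reached 0.419 with 35.8% of 54488 sites bound. KLF4, known for its part in smooth muscle phenotype change, was in the lower part of the group at 0.308, with 21.4%. KLF and SP motifs also had many sites, with a median of 54488 per motif against 18672 over all motifs, so they held large numbers of bound calls: 19528 for SP2 alone.

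E2F motifs, of factors that time the cell cycle, had a median of 0.328 and 24.3% bound. They spread widely for 8 motifs, from 0.223 for E2F7 to 0.417 for TFDP1, the dimer partner of the E2F proteins. E2F1, E2F2, E2F3 and E2F4 had 2051 to 2834 sites each, among which E2F3 stood lowest at 0.249.

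ETS motifs had a median of 0.307 and 19.9% bound over 28 motifs, and differed between the deposited motif clusters. The 11 of the ETS1 cluster, among them ELK1, ELK3, ETV4, ETV5 and FLI1, had a median of 0.359 and 26.4% bound. The 9 of the Erg cluster had 0.235 and 11.5%. The ranges of these clusters overlapped, from 0.261 to 0.460 for ETS1 and from 0.219 to 0.346 for Erg. Spi1 and SPIB, whose factors PU.1 and Spi-B belong to blood cells, had 0.206 and 0.214, and SPIC was lowest of the group at 0.189 with 7.45%. Since the ETS1 cluster holds so many of the motifs, the group median depends on how it is counted. With each cluster counted once it was 0.227, with 10.8% bound.

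**Figure D2:**
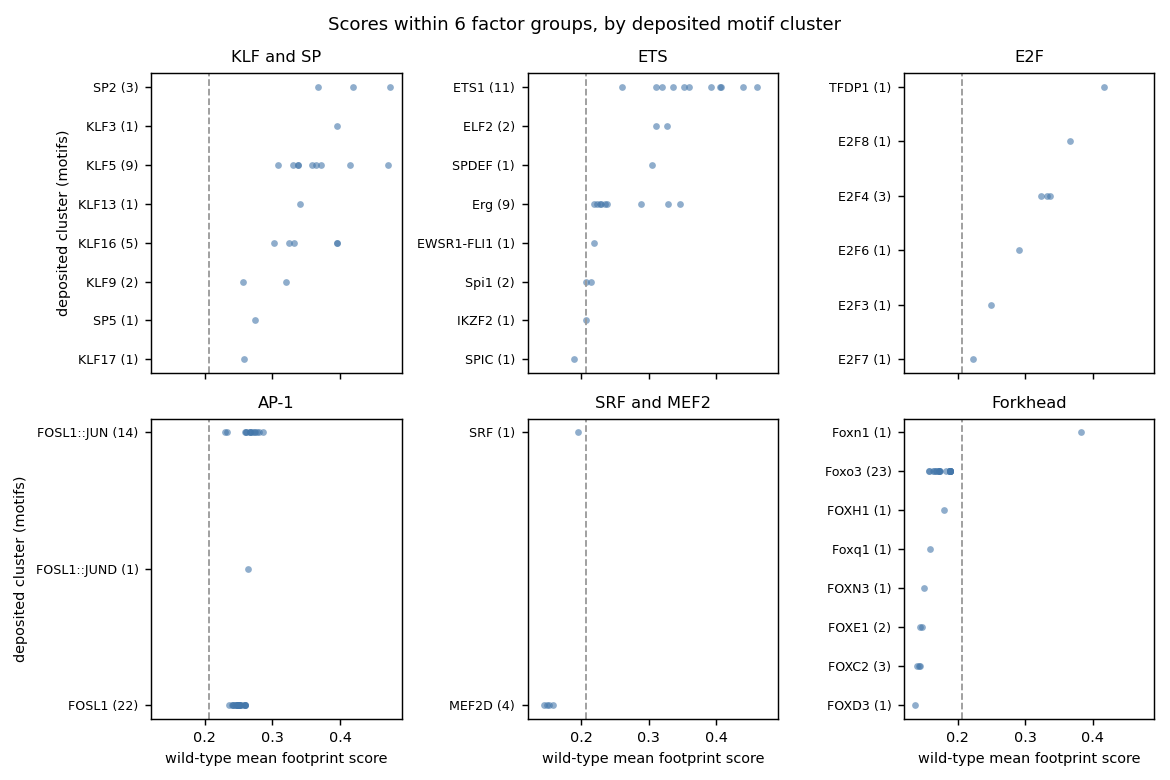
Wild-type mean footprint score (no unit) of the motifs of 6 groups, split by the motif cluster that the deposited table gives (number of motifs in brackets); the dashed line is the median of all motifs. Among ETS motifs the ETS1 cluster has a median of 0.359 and the Erg cluster 0.235, with overlapping ranges. SRF stands above the 4 MEF2 motifs, and Foxn1 stands far from the other forkhead motifs.

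CTCF, the zinc finger protein that anchors chromatin loops, had scores of 0.297, 0.300 and 0.322 in its 3 matrices, and CTCFL, its germline relative, 0.306. Bound shares were 19.9% to 23.6%. The group was of rank 6 by median score, and its lowest motif lay above every AP-1 motif.

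AP-1 motifs, of FOS, JUN, BATF and ATF3 dimers, had a median of 0.251 with 14.7% bound, and all 37 stood above the median of all motifs. They ran only from 0.230 for JUN (matrix MA0488.2) to 0.286 for JUNB (MA1140.3), whose other matrix had 0.251. The 14 of the cluster FOSL1::JUN, which also holds motifs of the CREB and ATF group such as CREM and ATF7, had a median of 0.267. The 22 of the cluster FOSL1 had 0.249, and their ranges overlapped. With a median of 38460 sites per motif, AP-1 combined a moderate share with many bound calls. The CREB and ATF group itself had 0.284, from 0.197 for ATF4 to 0.327 for Atf1. CNC and MAF motifs, which include NRF2 and BACH factors, had 0.240, at rank 13 against rank 10 for AP-1.

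SMAD, NF-kB, RUNX and TEAD motifs lay near the middle of the table. SMAD motifs, of the factors that carry TGF-beta signals, had a median of 0.226, from 0.209 for Smad4 to 0.236 for SMAD2. NF-kB motifs had 0.223, from 0.205 for RELB to 0.238 for NFKB2. RUNX motifs had 0.213, with RUNX3 lowest at 0.198 and Runx1 highest at 0.218. The 4 TEAD motifs, for the DNA-binding partners of YAP and TAZ, had 0.207, with TEAD3 at 0.211 and TEAD4 at 0.200, and 8.24% to 9.11% bound. The ranges of RUNX and TEAD overlapped, and so did those of SMAD and NF-kB, so no order is read within either pair. TEAD stood at rank 24 of 45 groups.

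Motifs of the MADS box factors stood near the bottom, at rank 44 of 45 by median score. SRF, which binds the CArG box, had 0.196 with 646 of 8649 sites bound, 7.47% (6.93% to 8.04%). It was below the median of all motifs and far above the MEF2 motifs. MEF2A had 0.144, MEF2C 0.149, MEF2D 0.153 and MEF2B 0.158, with 4.13% to 5.25% bound. The group median, 0.153, is thus that of MEF2. With the MEF2 cluster and SRF counted once each it was 0.173, just above the GATA value on that count, 0.172, and by bound share the group was of rank 40.

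GATA and forkhead motifs were low as well. GATA motifs had 0.171 over 7 motifs, from 0.165 for TRPS1, GATA6 and Gata3 to 0.177 for GATA1. Forkhead motifs had 0.172 over 33 motifs, and 32 of these lay between 0.137 for FOXD3 and 0.189. The exception was Foxn1, with 0.382 and 30.7% of 22108 sites bound, which has a cluster of its own in the deposited table.

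At the very bottom, the AT-hook and ARID group had a median of 0.128 with 2.88% bound, from 0.124 for Hmga1 to 0.134 for Arid3a. HOX and CDX motifs, grouped with those of EVX, GBX, GSX, MNX1 and PDX1, had 0.153. POU motifs had 0.155 and the large class of other homeobox motifs 0.164. HOXA9 was the exception among the HOX motifs, with 0.251 and 13.7% bound (11.6% to 16.1%), and it had the fewest sites of the whole table, 903. The next HOX motif below it was HOXA4 with 0.176. The lowest HOX values, 0.136, were shared by several motifs. Among POU motifs the range was 0.130, for POU4F3, to 0.181, for 1 of the matrices of POU6F1, a brain POU factor. Among the other homeobox motifs NKX2-2 was highest, at 0.231. The TALE and CUT homeobox group stood higher than these 3 homeobox groups, at rank 28 with a median of 0.199.

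Many motifs were not separate measurements. The table has 879 motifs but only 774 different combinations of sites, score and bound sites, and 134 motifs in 29 sets had exactly the values of at least 1 other motif. The largest set held 29 homeobox motifs, among them EN1, HOXB2, PDX1 and VAX2, all with 326 of 9342 sites bound and a score of 0.136. Another held 16, with DLX1, MSX1, HOXA7 and LHX2, at 0.164. A set of 11 forkhead motifs, including Foxo1, Foxo3, FOXP1, FOXK1 and FOXA3, stood at 0.189. These names therefore cannot be told apart by footprint. The homeobox and forkhead groups were those most affected: their 99, 47 and 33 motifs (other homeobox, HOX and CDX, forkhead) gave 57, 29 and 22 different values. The 37 AP-1 motifs gave 34.

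Score went largely with cluster, although some clusters were wide, such as that of ETS1, which ran from 0.261 to 0.460. Over 490 motifs with different values in the 122 clusters that hold at least 2 of them, cluster accounted for 91.8% of the variance in score, and factor group for 76.4%. Over all 879 motifs factor group accounted for 61.6%, and for 57.7% with identical values counted once. These shares are not adjusted for the number of classes, and there are more clusters than groups, so they are not on 1 footing. Motifs of 1 cluster overlap at the same genomic sites, so the shares describe the table and not independent sites.

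For 44 factors the table has more than 1 matrix, and these could differ as much as factors of separate groups. The gap between the highest and lowest matrix of a factor had a median of 0.028 and ran from 0.0011 to 0.084. The smallest was that of RORA, a nuclear receptor. The largest was that of PAX3, a paired box factor, with 0.131 for one matrix (MA0780.1, 3.07% bound) and 0.215 for the other (MA1546.2, 9.53% bound). PAX3 has a paired domain and a homeodomain. MEIS2 had 0.152 and 0.221, BHLHE22 0.183 and 0.245, and SREBF2, a regulator of sterol genes, 0.223 and 0.279. In 38 of the 44 factors the matrices belonged to more than 1 cluster.

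Score and bound share gave nearly the same order, with a Spearman correlation of 0.986 and a Pearson correlation of 0.982 across 879 motifs. Bound calls are made from the same footprint scores, so they are not independent of each other, and motifs share sites. The order of groups by share was almost that by score: EGR and WT1, KLF and SP, E2F, NFY and CTCF led, and ETS followed at rank 6. The number of sites had little to do with the score (Spearman correlation 0.227, Pearson 0.172).

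Some groups departed from that common relation. A line fitted to log2 share against log2 score had a slope of 2.19, with residuals of SD 0.13, and it lay above the motifs of the highest scores. IRF motifs, of interferon regulatory factors, had the highest median residual, 0.23 on the log2 scale, followed by CEBP and PAR motifs with 0.21 and AP-1 with 0.18. NFY had the lowest, -0.31, with SNAI, SCRT and ZEB motifs and T-box motifs both at -0.28. The IRF4 motif, at a score of 0.196, had 9.19% of 12257 sites bound (8.70% to 9.72%). SNAI2, the repressor Slug, scored slightly more, 0.201, with 5.50% of 21902 sites bound (5.20% to 5.81%). These motifs were picked from groups at opposite ends of the residuals, so they illustrate the departure and do not test it.

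**Figure D3:**
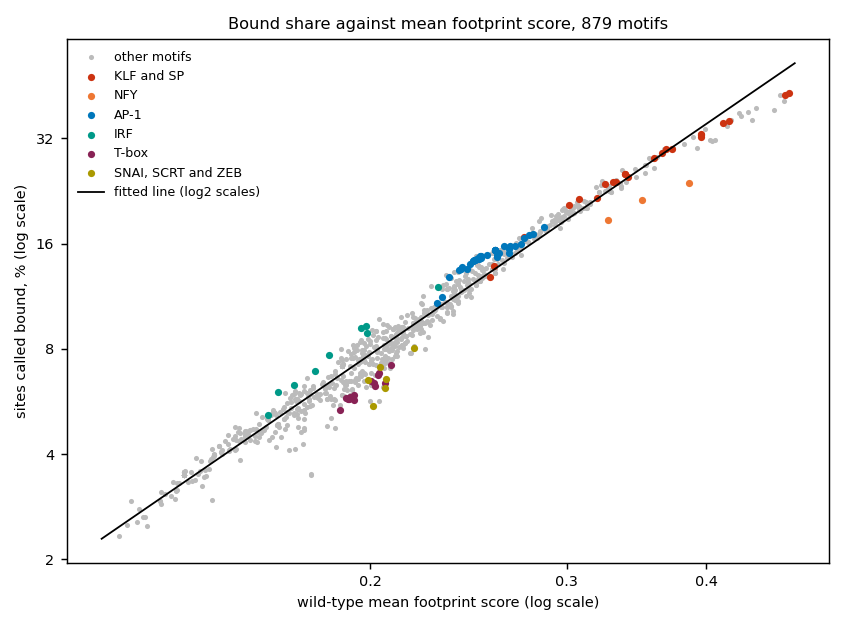
Share of sites called bound (%, log scale) against wild-type mean footprint score (log scale) for 879 motifs, with 6 groups coloured and the fitted line in black. All IRF and AP-1 motifs lie above the line, and all NFY, T-box and SNAI group motifs below it.

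RNA of the factors was a readout that the footprint table does not hold. The names of the table contain 754 factors, of which 683 were matched to a mouse gene of the expression table, 656 by symbol and 27 by a unique synonym. Of these genes 394 were at 1 TPM or more in wild-type cultures. Genes of the highest group by footprint were not the most abundant. Egr1 was at 46.6, 47.8 and 36.8 TPM, but Egr3 was at 1.20, 2.01 and 1.13 TPM, Wt1 at 0, 0.15 and 0.05 TPM, and Egr4 was listed at 0. All 3 NFY genes were present, from 28.7 ± 4.38 TPM for Nfyb to 45.9 ± 1.85 TPM for Nfya (SD, n = 3).

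Of the 23 KLF and SP genes 19 reached 1 TPM. Klf6 was the most abundant at 116, 118 and 121 TPM, whereas Klf15, whose motif led the table, was at 5.09, 5.75 and 5.78 TPM, and Klf14 was listed at 0. All 8 E2F genes reached 1 TPM, from E2f2 at 2.53 ± 0.39 TPM to Tfdp1 at 125 ± 11.4 TPM. Among ETS genes Erg, an endothelial ETS factor, was the most abundant, at 249, 244 and 245 TPM, ahead of Elk3 at 79.9, 76.8 and 77.6 TPM. Spdef was listed at 0, although the SPDEF motif scored 0.304. Tfdp1 thus led the E2F group in both RNA and score, while Klf6 and Erg, first by RNA, were not the highest motifs of their groups.

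For several motifs with high scores the gene of the same name was below 1 TPM. No Tfap2 gene reached 1 TPM, with Tfap2a highest at 0.67, 0.31 and 0.55 TPM, while the 10 TFAP2 motifs had a median score of 0.292 and 18.4% bound. Foxn1 was at 0.02, 0 and 0 TPM, with a score of 0.382. Tcfl5 was at 0.64, 0.81 and 0.28 TPM, with 0.428. Ctcf stood at 56.0 ± 2.00 TPM and Ctcfl at 0.14 ± 0.05 TPM (SD, n = 3), with motifs of like score. Which proteins sit on these sites was not measured.

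At the bottom of the order some factor genes were abundant and others not detected. Hmga1, which encodes an AT-hook chromatin protein, was the most abundant of all 683 factor genes, at 445, 360 and 419 TPM, and its motif was of rank 875 of 879. Mef2d and Mef2a were at 97.9 ± 7.94 and 87.9 ± 2.73 TPM, Mef2c at 6.97 ± 0.86 TPM and Mef2b at or near 0 (SD, n = 3). Srf was at 47.6, 44.5 and 46.6 TPM. Gata2 was at 134 ± 2.10 TPM and Gata1 was listed at 0. Foxp1, the most abundant forkhead gene, stood at 108 ± 4.81 TPM and Foxi1 was listed at 0.

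In the groups at the middle of the order, all 4 TEAD genes, all 4 SMAD genes and all 5 NF-kB genes reached 1 TPM. Tead2 was at 113, 106 and 109 TPM and Tead4 at 5.01 ± 0.31 TPM. Smad3 was at 88.0 ± 3.77 TPM and Smad5 at 26.4 ± 1.17 TPM. Rela was at 233 ± 23.3 TPM and Rel at 2.49 ± 0.29 TPM. RUNX genes were low, from 0.84 ± 0.03 TPM for Runx3 to 4.43 ± 0.64 TPM for Runx2. AP-1 genes ranged from Fosb at 0.85 ± 0.12 TPM to Jund at 150 ± 1.65 TPM, with 10 of 11 at 1 TPM (SD, n = 3 for each).

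Homeobox genes were mostly below 1 TPM, except in the TALE and CUT group. Of 90 genes in the class of other homeobox factors 15 reached 1 TPM, led by Nkx2-3 at 34.2, 36.0 and 34.6 TPM, and Vax1 was listed at 0. Of 14 POU genes 2 did, with Pou6f1 at 14.6 ± 0.75 TPM (SD, n = 3) and Pou5f1 at 0. In the HOX and CDX group, which also holds EVX, GBX, GSX, MNX1 and PDX1, 22 of 47 genes reached 1 TPM. Hoxb7 was at 43.6, 47.1 and 49.6 TPM and Hoxa9, the gene of the exceptional motif, at 32.7, 31.9 and 33.3 TPM, while Pdx1 was listed at 0.

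Across 757 factors or dimers with RNA, a dimer taking the level of its less abundant partner, the Spearman correlation of score and TPM was 0.314, and the Pearson correlation of score and log2(TPM + 1) was 0.291. Points of 1 family share their motif sites, so these are descriptions. With the factors in 4 bins of near equal size by score, 35.8% of the 190 in the lowest bin reached 1 TPM, then 52.4% and 65.1%, and 78.3% of the 189 in the highest. The median levels of these bins were 0.203, 1.10, 5.26 and 12.6 TPM. Without the 4 homeobox groups the Spearman correlation was 0.194.

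**Figure D4:**
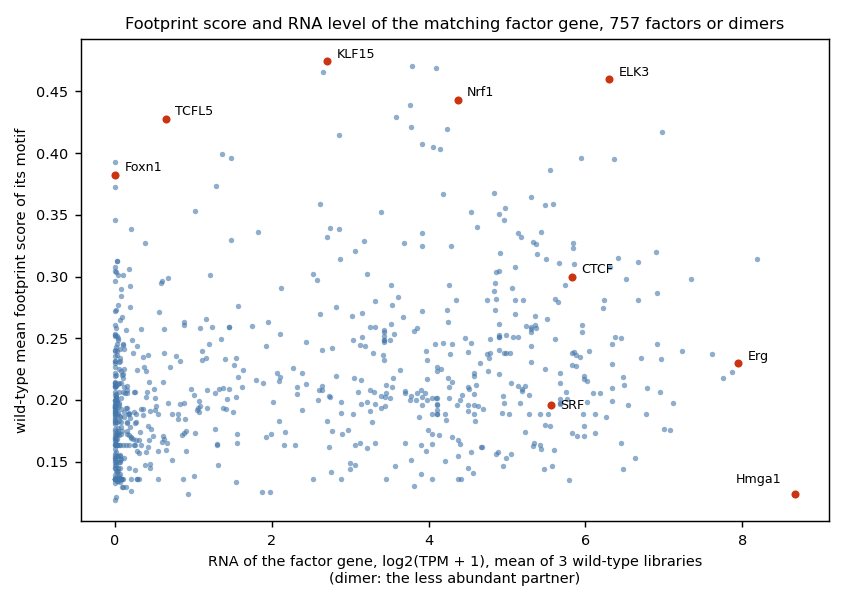
Wild-type mean footprint score (no unit) against RNA of the factor gene, log2(TPM + 1), mean of 3 wild-type libraries, for 757 factors or dimers, with 9 named in red. High scores with RNA below 1 TPM (Foxn1, TCFL5) and abundant RNA with the lowest scores (Hmga1) stand in opposite corners of a weak relation. The Spearman correlation was 0.314.

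Over the 21 groups given a core, the median score rose with the share of G and C among its defined letters. The Spearman correlation was 0.772 and the Pearson correlation 0.708. The cores were picked with the scores known, 1 core stands for a whole group, and other groups were given none. These values are therefore a description and do not test composition. The core GGGCGG of KLF and SP is 100% G and C and TAATTA of the HOX and CDX motifs 0%. NFY with CCAAT, 40%, and AP-1 with TGANTCA, 33.3%, had higher scores than other groups of like composition. At the same 66.7% of G and C, CACGTG went with 0.281, the median of MYC, USF and related motifs such as EPAS1 and HES5. CAGCTG of tissue E-box factors and CAGGTG of SNAI factors went with group medians of 0.214 and 0.205. Of these 3 hexamers CACGTG alone holds a CpG, and whether that bears on the score was not tested.

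**Figure D5:**
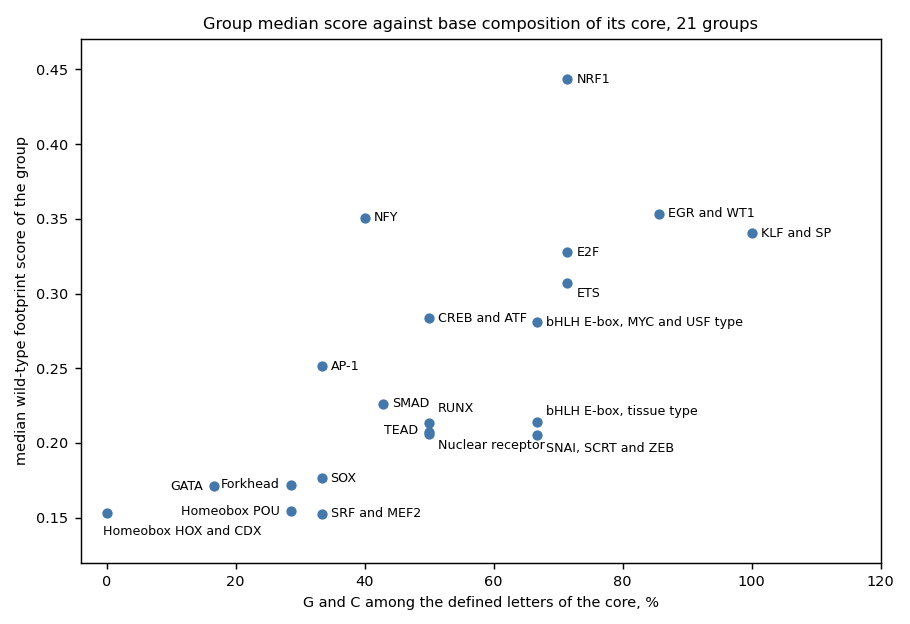
Median wild-type footprint score (no unit) of 21 groups against the percentage of G and C in the core letters of each. The cores were chosen with the scores known. Homeobox, MEF2 and GATA groups lie at the lower left, KLF and SP and EGR at the upper right, and NFY stands above groups of like composition.

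How often a core occurs in promoters did not follow the same order. Among 32544 RefSeq promoter windows of GRCm38.p6, each from 250 bases before to 50 bases after a gene start and searched on both strands, CCAAT was found in 37.4%, GGGCGG in 35.9% and CCGGAAG in 8.91%. The NRF1 core was in 3.60%, TAATTA in 5.29%, TGANTCA in 7.79% and GGAATG in 14.6%. The cores differ in length, so their shares are not on 1 footing. Across the 21 groups this share had a Spearman correlation of 0.0961 and a Pearson correlation of 0.215 with the median score.

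As an example of how the letters of high groups lie together, the 150 bases before the start of E2f3 are printed, the window with the cores of most of the 5 highest groups among promoters of their own factor genes. It is chr13:29986064-29986213 of GRCm38.p6 on the minus strand, from RefSeq, and capitals mark matches on either strand to the cores of the 5 highest groups and of 5 low ones (SRF and MEF2, HOX, POU, GATA, forkhead).
E2f3: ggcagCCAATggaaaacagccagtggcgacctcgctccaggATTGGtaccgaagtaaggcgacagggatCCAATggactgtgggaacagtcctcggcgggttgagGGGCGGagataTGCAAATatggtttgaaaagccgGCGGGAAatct

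The E2f3 window holds 3 matches to the NFY core, 1 to that of KLF and SP and 1 to that of E2F, and also 1 to the POU core TGCAAAT, whose group stands at rank 42 of 45. E2f3 RNA was at 10.4 ± 0.062 TPM (SD, n = 3). The footprint table gives no positions, so whether any of these letters was called bound in these cells was not analysed here.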

How the data were processed

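The mean score of each motif was computed by the authors over all its sites with TOBIAS BINDetect, to judge by the column names, and deposited with the numbers of sites and of bound sites. Wild-type columns pool 2 mice, per the labels, and the other genotype's columns were not used. Build mm10 is given per the submitters' processing notes. The authors scored both genotypes in 1 table over the same sites, so a scaling between them would touch these scores. For peak calling, insertion correction, the bound threshold and scaling, no setting is known here. The TPM values were deposited by the authors and are named as kallisto output, per the labels, so read number is unknown.

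Bound share is bound over searched sites, with 95% Wilson intervals. Motifs were grouped by factor name; 34 dimers of 2 groups and 11 unplaced motifs were not ranked. Named motifs were the 10 highest and lowest by score and by share, the extremes of the 5 highest and 5 lowest groups and of 11 groups set by name, and the most and least abundant factor genes; others were chosen after their values were seen, as were the core letters. Members and lists were chosen with earlier results of these data known. No differences were tested. Some named motifs are not reported here. The coverage of the interval script was checked on simulated counts. Python 3.11.15, numpy 2.4.6, scipy 1.17.1, pandas 2.3.3 and matplotlib 3.10.9 were used.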

Additional observations from a re-analysis of the deposited data

How the results depend on the processing

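The limits are those of 1 pooled value per motif: no spread between mice, sites shared between motifs, and an unknown threshold for bound sites. Alternatives were set beforehand, except counting identical values once and leaving out homeobox motifs, which were chosen after seeing the data. A median or correlation over motifs was taken as moved past 10% of its value, an RNA correlation past 1 SD between libraries, and a count past 1.5 times. With each deposited cluster counted once, 3 of the 5 lowest groups by median score stayed among the 5 lowest, and the Spearman correlation of score with number of sites was 0.0698; with identical values counted once it was 0.138. Among groups of at least 5 motifs, 3 of the 5 highest and 3 of the 5 lowest by bound share stayed, since smaller groups drop out. The Spearman correlation of score and RNA was 0.323 for single-factor motifs, 0.271 with identical values counted once and 0.194 without homeobox groups; the Pearson correlation was 0.296, 0.251 and 0.184, and 0.304 with a pseudocount of 0.1. Without each RNA library in turn the Spearman correlation was 0.311 to 0.316. The other 36 values of summary results, and 138 of 150 for single groups, did not move by these rules, and none changed sign, although the number of factors at 1 TPM, 438, became 359 at a minimum of 5 TPM; the causes of those that moved were not tested, apart from the groups that drop out. No paired analysis was possible because genotypes were not compared and the wild-type mice share 1 column.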
